A study of Mus musculus with 4 samples.

Results

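PIWI proteins are Argonaute relatives of the germline that carry PIWI-interacting RNAs (piRNAs), and in fetal male germ cells they direct the silencing of transposons. Here 6 genes of this system were described, chosen by name under a rule that uses no measured value: the PIWI genes Piwil1, Piwil2 and Piwil4, and the nuclear silencing genes Spocd1, Tex15 and Morc1. All 6 of 6 were found among the 36088 genes of the table. Wild-type (WT) mouse male germ cells had been sorted from fetal testes kept in culture with DMSO, the solvent control, or with CBR-5884, an inhibitor of serine metabolism, and the sample titles give day 14. Each condition had 2 libraries, stated to be biological replicates, and no group carried a mutation. The labels leave out the dose, the start from which day 14 is counted, the marker used for sorting and whether animals were pooled. The study addressed serine metabolism in the differentiation of male germ cells, and the comparison asks how these genes stood when it was inhibited.

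In mice Piwil2 (MILI) sits in the cytoplasm, cuts transposon RNA and feeds piRNA production. Piwil4 (MIWI2) takes up piRNAs and enters the nucleus of fetal prospermatogonia, where transposon promoters become DNA methylated. Spocd1 and Tex15 act with Piwil4 in this methylation step, Morc1 is an ATPase needed for transposon silencing in the same cells, and Piwil1 (MIWI) is known for its later role in pachytene spermatocytes and spermatids.

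The RefSeq promoter table on GRCm38.p6 held 2 of the 6 genes, Piwil1 and Piwil4. The 250 bases before each start site are printed because they set a PIWI gene of meiosis beside the PIWI gene of fetal silencing. Capitals mark E-boxes (CACGTG) and the MYB motif CAGTTG, searched on both strands; the motifs did not overlap.
Piwil1, chr5:128735996-128736245, plus strand: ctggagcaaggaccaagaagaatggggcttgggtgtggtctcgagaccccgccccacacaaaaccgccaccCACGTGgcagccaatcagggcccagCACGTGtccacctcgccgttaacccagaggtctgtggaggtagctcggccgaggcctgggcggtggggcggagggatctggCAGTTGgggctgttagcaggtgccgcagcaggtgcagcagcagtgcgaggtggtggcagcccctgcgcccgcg
Piwil4, chr9:14740673-14740922, minus strand: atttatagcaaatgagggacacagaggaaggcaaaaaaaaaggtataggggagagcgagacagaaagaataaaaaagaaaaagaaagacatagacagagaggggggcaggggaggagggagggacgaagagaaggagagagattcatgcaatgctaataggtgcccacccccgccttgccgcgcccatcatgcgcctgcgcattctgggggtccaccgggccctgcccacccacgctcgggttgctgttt

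The Piwil1 window held 2 E-boxes, beginning at positions −179 and −154 from the start site, and 1 MYB motif at −73. An E-box was present in 6.02% of all 32851 promoter windows of this length, 2 or more E-boxes in 0.43%, and the MYB motif in 11.14%. The Piwil1 window had 16 CpG sites and 67.6% G and C, against medians of 6 and 52.4% over all windows. The Piwil4 window began with a stretch rich in A and G, had 10 CpG sites, and held none of the motifs searched, which also included the E2F motif GGCGGGAA (1.86% of windows) the CRE motif TGACGTCA (1.55%) and its shorter core TGACG (17.77%). The table lists a second Piwil4 start, whose window (chr9:14718388-14718637) had 0 CpG sites. The Piwil1 start used lies inside the gene as annotated in GENCODE M21, which begins upstream at 128702524. No window before that position was examined. The printed Piwil1 window also overlaps the gene 4930553I04Rik on the opposite strand (128735360 to 128736029). These matches describe letters in a window and say nothing of binding in these cells.

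The PIWI genes are paralogs, so the stretches that could confuse their reads were looked for. The longest run of identical bases between 2 of their coding sequences was 15 bases, shared by Piwil1 (exon 10 of 22) and Piwil4 (exon 8 of 19), and is in capitals here in its coding context.
Piwil1, chr5:128744284-128744328, plus strand: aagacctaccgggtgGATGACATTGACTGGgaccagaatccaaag
Piwil4, chr9:14725922-14725966, minus strand: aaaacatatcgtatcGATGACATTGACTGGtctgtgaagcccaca

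The longest run was 12 bases for Piwil1 with Piwil2 and 14 bases for Piwil2 with Piwil4. No 31-base word of any of the 6 genes' annotated transcripts (GENCODE M21) occurred in another of the 6. Words shared with any other annotated gene made up 0.41% of the words of Piwil1, 2.41% of Piwil4, 0.62% of Morc1 and 0% of Piwil2, Spocd1 and Tex15. Annotated transcripts numbered 4 for Piwil4 and Tex15, 3 for Piwil1, Piwil2 and Morc1, and 2 for Spocd1.

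On GRCm38 Piwil1 lies on chromosome 5 (128702524 to 128755474, plus strand), Piwil2 on chromosome 14 (70372477 to 70429383, minus strand) and Piwil4 on chromosome 9 (14696230 to 14740733, minus strand). Spocd1 lies on chromosome 4 (129929249 to 129957115), Tex15 on chromosome 8 (33516738 to 33585582) and Morc1 on chromosome 16 (48431237 to 48630900), all on the plus strand. Piwil1 and Piwil4 overlap annotated genes on the opposite strand, 1 and 2 in number. The sources used here do not say whether counting used strand, so reads from sequence that these partners share with them cannot be told apart. With words read on both strands, such sequence lies within the shares of 0.41% and 2.41% given above. Of the partners, only the pseudogene Gm15586 inside Piwil4 had a value in the table, at 0 to 0.575 TPM.

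All 4 libraries carried the germ cell markers. The summed level of 7 germ cell markers, Ddx4 and Dazl among them, was 2193 to 2231 TPM (a transcript abundance scaled by length and by library total), and each of the 7 was above 1 TPM in each library. Markers of other testis cells were lower: 8 Sertoli markers summed to 74.1 to 136 TPM, 6 Leydig markers to 8.20 to 13.6, 5 peritubular to 7.44 to 13.5, 5 endothelial to 9.44 to 10.4, 5 macrophage and leukocyte to 18.7 to 59.3, and 5 red blood cell to 0.707 to 1.74 TPM. The red cell globins Hbb-bs, Hbb-bt and Hba-a1 and the Sertoli gene Rhox5 were listed at 0 in all 4 libraries. The commonest low value of the deposited scaled reads, 0.891 to 1.11 units, was taken as 1 read. This puts the libraries at an estimated 22500000 to 28200000 reads, with the reads of genes that have several transcripts set to a common length.

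The 6 genes spanned a wide range of levels, and their order was the same in every library. Piwil2 was the most abundant, followed by Tex15, Morc1, Piwil4, Piwil1 and Spocd1, and the 4 values of each gene did not overlap those of its neighbours in this order. By mean level Piwil2 stood at the 95.7th percentile of the 14920 genes tested, Tex15 at 92.2, Morc1 at 74.4, Piwil4 at 47.0, Piwil1 at 34.8 and Spocd1 at 24.9. Levels between genes are compared in TPM, a measure per length. The annotated transcripts of Piwil2 run from 666 to 4916 bases, those of Tex15 from 706 to 8405 and those of Morc1 from 925 to 4012. For Piwil4 they run from 2111 to 3304 bases, for Piwil1 from 1691 to 4016 and for Spocd1 from 626 to 3096. The TPM of each gene, and so its place in this order, depends on how reads were divided between its transcripts.

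**Figure D1:**
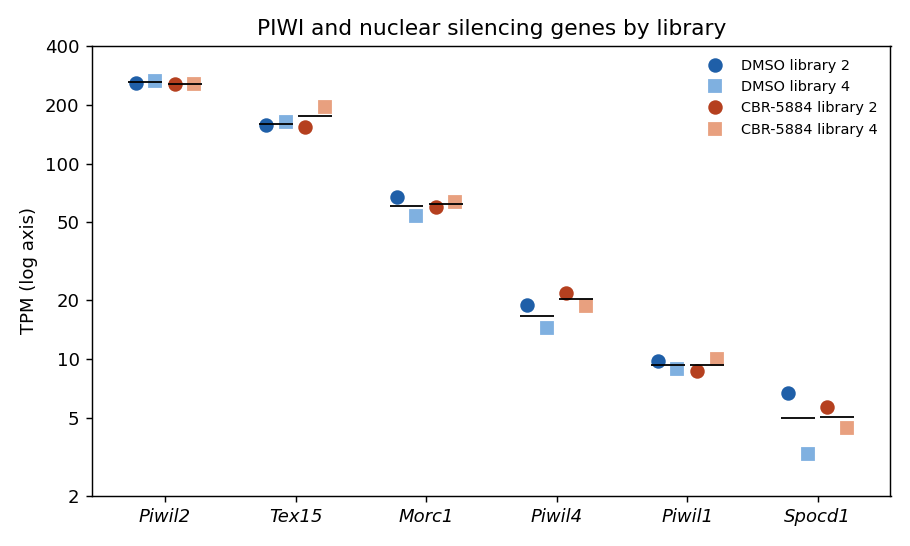
TPM of the 6 genes in each of the 4 libraries (log axis), with points for single libraries and lines for the mean of the 2 libraries of a condition. The genes keep 1 order from Piwil2 at 255 to 264 TPM down to Spocd1 at 3.28 to 6.72 TPM, and the conditions lie close together for each gene.

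None of the 6 genes passed the threshold between CBR-5884 and DMSO. The comparison was made with limma on log2(TPM + 1) over all 14920 genes with a mean of at least 1 TPM, all 6 genes among them. A gene was called when its Benjamini-Hochberg adjusted p was under 0.05. Of the 6 genes 0 were called, against 0% of all genes tested (0 of 14920). At an unadjusted p under 0.05 there were 0 of the 6 genes, against 3.66% (546 genes) of all. The 2 conditions did not overlap for 1 of the 6, Piwil2, against 31.3% of all genes. Of the 6, 4 had a positive and 2 a negative log2 fold change, with a median of 0.052 against −0.011 over all genes tested. That median was 0.14 and −0.033 on leaving out DMSO libraries 2 and 4, and 0.084 and −0.015 on leaving out CBR-5884 libraries 2 and 4. The labels call the libraries biological replicates but do not say whether cultures or animals were separate, so the SDs below measure the spread between these libraries. The limma SEs, intervals and p-values rest on a variance that also borrows from all genes tested. For a gene as steady as Piwil2 this makes them wider than its own spread.

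Piwil2, the cytoplasmic slicer, was the steadiest of the 6. It had 257.1 and 264 TPM in DMSO libraries 2 and 4, and 256.7 and 255 TPM in CBR-5884 libraries 2 and 4. Both CBR-5884 values were just under both DMSO values. The mean of the DMSO libraries was 260.5 ± 4.74 TPM and that of the CBR-5884 libraries 256 ± 0.975 TPM (SD, n = 2). The log2 fold change was −0.025 (SE 0.069; limma adjusted p = 0.998), and its 95% interval of −0.19 to 0.14 corresponds to 0.875-fold to 1.10-fold. The direction turned when each library was rescaled to the same total (log2 fold change 0.0024), and the conditions then overlapped. CBR-5884 library 4 had the lowest TPM total of the libraries (966761).

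Piwil4, the nuclear PIWI protein, had the largest difference between the conditions among the 6 genes. It had 18.9 and 14.5 TPM in DMSO libraries 2 and 4, and 21.9 and 18.7 TPM in CBR-5884 libraries 2 and 4. DMSO library 4 was the lowest and CBR-5884 library 2 the highest, and the conditions overlapped, since DMSO library 2 lay above CBR-5884 library 4. The log2 fold change of 0.27 (SE 0.18; 95% interval −0.15 to 0.70; limma adjusted p = 0.998) was smaller than the difference of 0.37 between the 2 DMSO libraries. Leaving out DMSO library 4 gave 0.090, leaving out CBR-5884 library 2 gave 0.16, and leaving out DMSO library 2 gave 0.46. The interval reaches from 0.899-fold to 1.62-fold.

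Piwil1, the PIWI protein of pachytene cells, was low and level. DMSO libraries 2 and 4 held 9.74 and 8.92 TPM, and CBR-5884 libraries 2 and 4 held 8.67 and 9.97 TPM. The lowest and the highest value both came from CBR-5884 cultures. The means were 9.33 ± 0.577 and 9.32 ± 0.925 TPM (SD, n = 2), and the log2 fold change was −0.0032 (SE 0.17; 95% interval −0.43 to 0.42; limma adjusted p = 0.999). A value this near 0 took either sign with the processing, such as 0.022 after scaling to equal library totals. Mybl1 (A-MYB), a transcription factor known to switch on Piwil1 and other pachytene piRNA genes, had 3.90 and 4.78 TPM in DMSO cultures and 4.30 and 5.21 TPM in CBR-5884 cultures. Of 9 markers of pachytene and later stages 5 had a mean under 1 TPM, among them Acr at 0 to 0.183 TPM and Pgk2 at 0 to 0.372 TPM. The other 4 were Tbpl1 at 107 to 115 TPM, Ldhc at 2.87 to 5.84 TPM, Ccna1 at 3.26 to 6.14 TPM and Mybl1. The early meiotic markers, such as Sycp3 at 162 to 196 TPM, were present. Of the 7, 6 had a positive and 1 a negative log2 fold change (median 0.15, against −0.011 over all genes tested). Their sum was 504 and 432 TPM in DMSO libraries 2 and 4, and 499 and 515 TPM in CBR-5884 libraries 2 and 4. DMSO library 4 was thus the low one, and DMSO library 2 lay between the CBR-5884 libraries. The 7 spermatogonia markers had 1 positive and 6 negative (median −0.094). Their sum was 970 and 882 TPM in DMSO libraries 2 and 4, and 815 and 788 TPM in CBR-5884 libraries 2 and 4. The 5 fetal prospermatogonia markers had 4 positive and 1 negative (median 0.17, the value of Dnmt3l). Dnmt3l was at only 0.989 to 1.87 TPM and turned to −0.052 without DMSO library 4. Nanos2 was low too, at 3.20 to 4.61 TPM. Nanos3 had 30.4 to 39.9 TPM and Dppa4 36.9 to 55.7 TPM, and Tdrd1 was the highest of the 5, with a mean of 106 TPM. Stra8, a spermatogonia marker, had 476 and 399 TPM in DMSO cultures and 376 and 323 TPM in CBR-5884 cultures. Its log2 fold change was −0.32 (limma unadjusted p = 0.034, adjusted p = 0.998), and its conditions did not overlap. It was the 1 spermatogonia marker of the 7 with an unadjusted p under 0.05, against 3.66% of all genes tested. In these lists 0 were called by limma, and the part of stage in the levels of the 6 genes was not tested.

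Within the PIWI family Piwil2 dominated in each library. Of the summed TPM of the 3 genes, Piwil2 took 89.4 to 91.9%, Piwil4 5.04 to 7.62% and Piwil1 3.02 to 3.51%. The sum itself was 286 and 287 TPM in DMSO cultures and 287 and 284 TPM in CBR-5884 cultures. Piwil2 exceeded Piwil4 13.6-fold and 18.2-fold in DMSO libraries 2 and 4, and 11.7-fold and 13.7-fold in CBR-5884 libraries 2 and 4. Piwil4 exceeded Piwil1 1.94-fold and 1.62-fold with DMSO and 2.53-fold and 1.87-fold with CBR-5884, so the 2 conditions overlapped in both ratios.

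Tex15, a nuclear partner of Piwil4 in transposon methylation, stood out in 1 library. It had 157 and 163 TPM in DMSO libraries 2 and 4, and 154 and 195 TPM in CBR-5884 libraries 2 and 4. Of the 4 values 3 lay between 154 and 163 TPM, and CBR-5884 library 4 was above them. The means were 160 ± 4.49 and 174 ± 28.8 TPM (SD, n = 2), and the log2 fold change was 0.11 (SE 0.12; 95% interval −0.18 to 0.41; limma adjusted p = 0.998). Without CBR-5884 library 4 it was −0.055, and without CBR-5884 library 2 it was 0.28.

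Morc1, the silencing ATPase, had 67.5 and 53.9 TPM in DMSO libraries 2 and 4, and 59.9 and 63.7 TPM in CBR-5884 libraries 2 and 4. Both CBR-5884 values lay between the DMSO values. The log2 fold change was 0.035 (SE 0.13; 95% interval −0.27 to 0.34; limma adjusted p = 0.998), while the DMSO libraries differed from each other by 0.32. Its direction turned when DMSO library 4 (−0.12) or CBR-5884 library 4 (−0.0085) was left out, and leaving out DMSO library 2 gave 0.20, CBR-5884 library 2 0.079.

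Spocd1, the nuclear factor that links Piwil4 to the methylation step, was the lowest and the most variable of the 6. It had 6.72 and 3.28 TPM in DMSO libraries 2 and 4, and 5.68 and 4.44 TPM in CBR-5884 libraries 2 and 4. The DMSO libraries held both the highest and the lowest value, 2.05-fold apart, with both CBR-5884 libraries between them. The means were 5.001 ± 2.43 and 5.06 ± 0.871 TPM (SD, n = 2). The log2 fold change was 0.068 (SE 0.33; 95% interval −0.73 to 0.87; limma adjusted p = 0.998), and it moved with each library left out. It became −0.36 on leaving out DMSO library 4 and 0.49 on leaving out DMSO library 2, and −0.079 and 0.22 on leaving out CBR-5884 libraries 2 and 4. The interval runs from 0.601-fold to 1.83-fold, the widest of the 6. At the gene's median transcript length its values correspond to an estimated 250, 113, 245 and 175 reads in the same order of libraries. These are not counts, and its annotated transcripts run from 626 to 3096 bases.

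The levels of Spocd1 ran in the same order of libraries as the summed Sertoli markers. From DMSO library 2 through CBR-5884 library 2 and CBR-5884 library 4 to DMSO library 4, the 8 markers summed to 136, 117, 98.0 and 74.1 TPM. Of the 7 Sertoli markers tested 5 (71.4%), Sox9, Amh, Wt1, Cldn11 and Inha, had this order. So had 1 of 7 germ cell, 1 of 7 spermatogonia and 0 of 2 Leydig markers, and 6.3% of all genes tested. The order was not particular to Sertoli markers. Spin1, which binds Spocd1, had it too, at 116, 114, 106 and 100 TPM, as had the piRNA genes Pnldc1 and Ddx39b. Gtsf1 and Mael had other orders, and the silencing and piRNA lists were not counted for it. Gata4 and Gata1 had other orders, with Gata4 highest in DMSO library 4 (11.7 TPM) and Gata1 in CBR-5884 library 2 (2.70 TPM). Markers of 1 cell type are not independent of each other. Amh, the hormone made by fetal Sertoli cells, had 38.5, 29.6, 26.5 and 16.6 TPM in the order of libraries given for the sum. This likeness was noticed after the values were seen, and the part of Sertoli RNA in the Spocd1 values was not tested. In such libraries fewer cells of a type and less RNA per cell cannot be told apart.

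**Figure D2:**
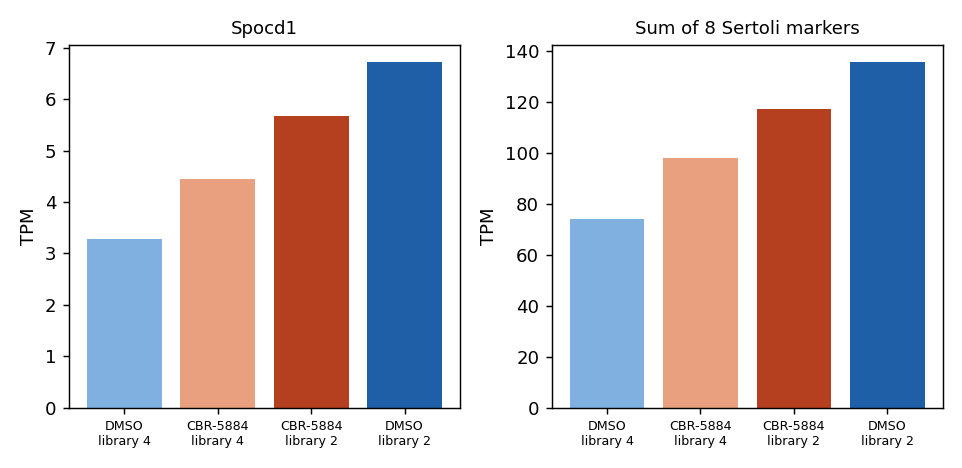
TPM of Spocd1 (left) and the summed TPM of the 8 Sertoli markers (right), 1 bar for each library, arranged from the lowest to the highest Spocd1. Both run from DMSO library 4 (3.28 and 74.1 TPM) to DMSO library 2 (6.72 and 136 TPM), with the CBR-5884 libraries between.

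**Figure D3:**
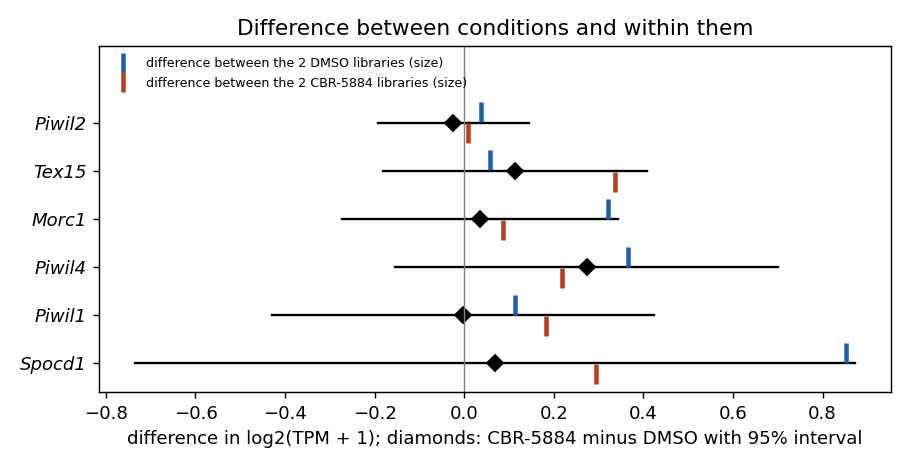
Log2 fold change of each gene (diamond, CBR-5884 minus DMSO) with its 95% interval, beside the size of the difference between the libraries of 1 condition (bars above and below the line), all in log2(TPM + 1). The 6 intervals all span 0, and for each of the 6 genes either the DMSO or the CBR-5884 libraries differ from each other by more than the conditions do.

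The other genes of nuclear silencing did not pass the threshold between the conditions either. Of 14 listed partners 13 were tested, 8 had a positive and 5 a negative log2 fold change, 0 were called by limma and 0 had an unadjusted p under 0.05. The conditions did not overlap for 4 of the 13, 3 higher and 1 lower with CBR-5884, near the 31.3% of all genes tested, and the median log2 fold change was 0.034. Dnmt3l, the cofactor of fetal de novo DNA methylation, had 1.69 and 0.989 TPM in DMSO cultures and 1.87 and 1.34 TPM in CBR-5884 cultures. Dnmt3c, the methyltransferase that mice use against young transposons, was at 0.050 to 0.219 TPM and was not tested. Dnmt3a, a general de novo methyltransferase, was far higher, with 118 ± 2.46 and 122 ± 2.07 TPM (SD, n = 2).

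Proteins that work beside Piwil4 in the nucleus or in its granules had values of the same kind. Gtsf1, a zinc finger partner of PIWI proteins, had 124.7 and 112 TPM in DMSO cultures and 135 and 125.5 TPM in CBR-5884 cultures (log2 fold change 0.14, limma adjusted p = 0.998). Leaving out DMSO library 4 gave 0.061, CBR-5884 library 2 0.087 and DMSO library 2 0.22. Mael, a germ granule protein needed for transposon silencing, had 388 ± 13.6 and 400 ± 5.10 TPM, and Tdrd9, a helicase found with Piwil4, had 54.6 ± 1.44 and 57.3 ± 1.68 TPM (SD, n = 2). Spin1, a chromatin reader that binds Spocd1, had 108 ± 11.3 and 110 ± 5.44 TPM (SD, n = 2).

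Genes of piRNA production ranged widely in level, from a mean of 0.791 TPM for Tdrd6, which was not tested, 4.55 for Mybl1 and 6.28 for Kif17 to 425 TPM for Fkbp6. Of 26 listed genes of piRNA processing and germ granules 25 were tested, 15 had a positive and 10 a negative log2 fold change, and 0 were called by limma. The median was 0.028, and leaving out CBR-5884 library 2 made it −0.032, leaving out DMSO library 4 −0.020. The conditions did not overlap for 8 of the 25, 5 higher and 3 lower, which is near the 31.3% of all genes tested. Tdrd7, a Tudor protein of germ granules, was the 1 gene of the 25 with an unadjusted p under 0.05, near the 3.66% of all genes tested, at 58.1 and 53.9 TPM in DMSO cultures and 66.3 and 64.5 TPM in CBR-5884 cultures (log2 fold change 0.22, limma adjusted p = 0.998). Ddx4 (the germ granule helicase) had 350.5 ± 26.6 and 362 ± 4.28 TPM, Mov10l1 (the helicase that starts piRNA processing) 169 ± 0.087 and 178 ± 4.73 TPM, and Tdrd1 (the scaffold that binds Piwil2) 104 ± 3.82 and 107 ± 2.33 TPM (SD, n = 2). Pld6, the mitochondrial nuclease of piRNA processing, had 47.1 ± 3.27 and 44.3 ± 7.21 TPM (SD, n = 2).

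The Argonaute genes of the microRNA and siRNA pathways, the nearest relatives of the PIWI genes, were lower in level than the PIWI genes together. Ago1 to Ago4 summed to 60.6 and 67.0 TPM in DMSO cultures and 54.2 and 59.3 TPM in CBR-5884 cultures, and the PIWI sum was 4.71, 4.29, 5.30 and 4.79 times as high in the same order of libraries. All 4 had a negative log2 fold change (−0.18 to −0.12, median −0.15), though Ago2 turned to 0.26 without DMSO library 4. Of the 4, 0 were called by limma and 0 had an unadjusted p under 0.05. The conditions did not overlap for 3 of the 4, against 31.3% of all genes tested, the exception being Ago2, at 6.23 and 11.9 TPM in DMSO cultures and 6.87 and 8.54 TPM in CBR-5884 cultures. The median of the 4 was −0.063 without CBR-5884 library 2. Of the other Morc genes 3 of 4 were tested, with a median of 0.034 (−0.058 without CBR-5884 library 4, 0.13 without library 2 of the same condition) and 0 called, and Morc2b was under 1 TPM.

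**Figure D4:**
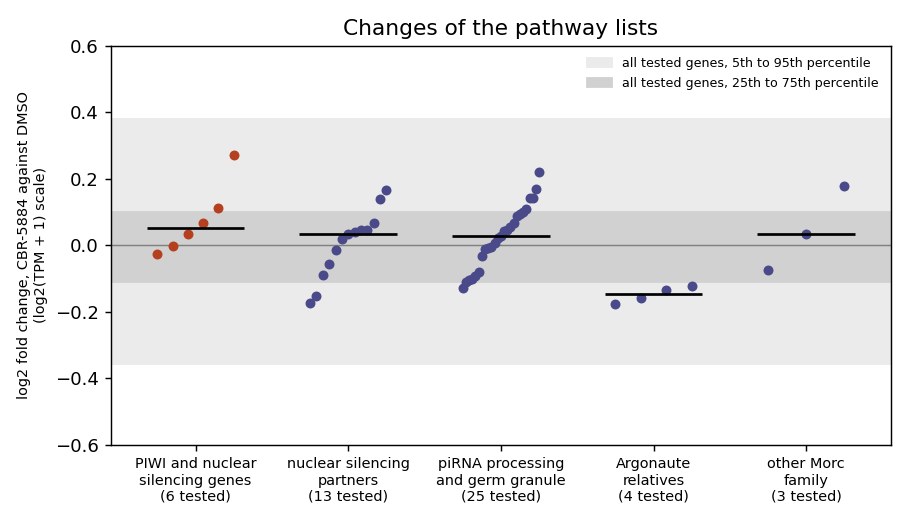
Log2 fold change (CBR-5884 against DMSO, log2(TPM + 1) scale) of the 6 genes and of 4 lists of related genes, 1 point for each tested gene and a line for the median, over bands from the 5th to the 95th and from the 25th to the 75th percentile of all tested genes. All points lie within the wider band, from −0.36 to 0.38, and the 4 Argonaute genes lie below the inner band, which starts at −0.11.

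The genes whose values ran most like each of the 6 over the 4 libraries were found among 10271 named genes with a mean of at least 5 TPM. The measure was the root mean square difference of log2(TPM + 1), each gene centred on its mean. The nearest were Cdk12 (0.0034) and Mrpl50 (0.0088) for Piwil1, Rab14 (0.0043) and Paxip1 (0.0045) for Piwil2, and Tpi1 (0.016) and Fam43a (0.021) for Piwil4. They were Reep1 (0.024) and Tmem184a (0.033) for Spocd1, Zc2hc1a (0.010) and Cpt1c (0.010) for Tex15, and Zfp213 (0.014) and Cfap97 (0.014) for Morc1. No piRNA gene was among these 12. The lists of nuclear partners and piRNA processing hold 14 and 26 genes, so few beside 10271 that this absence carries no information. The likeness covers 4 libraries only.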

How the data were processed

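RNA was measured in 4 libraries, 2 a condition. Libraries came from total RNA with a TruSeq RNA kit, per the labels. The submitters' processing notes name kallisto, fastp and the build mm10, without versions, settings or annotation. Per the file headers the deposited table holds TPM and scaled reads per base, both gene-level signal values repeated on the line of each transcript, and a single line was kept for each. The deposited TPM signal summed to 966761 to 1002976 per library, so it had been rescaled. The ratio of both signals followed the median transcript length of a gene (r = 0.994 on a log scale across 14822 genes), so the deposited scaled reads are no counts; 35.2 to 36.3% of low values were whole multiples of 1 read (tolerance 0.05).

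With limma 3.58.1 (limma-trend, R 4.3.3, two-sided), log2(TPM + 1) was compared over the 14920 genes whose mean TPM was 1 or more, without covariates; 21168 genes were left out. A fold change on this scale understates that of low genes. A count test had been planned for counts only. The smallest p of an exact permutation test of 2 against 2 libraries is 0.33, so none was used. The fit was tested on simulated data.

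The table numbers libraries 2 and 4 and the labels 1 and 2: the condition is certain, the replicate is not, and libraries go by table number. The rule for the 6 genes uses no measured value, but the genes and lists were chosen with earlier results of these data known. Named are the 6 genes, a panel of 13 list genes, pathway genes with an unadjusted p under 0.05, and the 2 genes most like each of the 6. Other genes are named as examples after their values were seen. Alternatives were other pseudocounts, filters, measures, scalings, a replicate block and each library left out. Gene positions come from GENCODE M21 (GRCm38, also called mm10), promoters from RefSeq.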

Additional observations from a re-analysis of the deposited data

How the results depend on the processing

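Each of the 6 genes stayed above an adjusted p of 0.05 (limma) in all 12 alternatives; the lowest was 0.718. The direction of Piwil4 was positive in all 12, from 0.090 to 0.46. The number of genes called was 0 in 11 alternatives and 1 with scaled reads per base, none of the 6. Scaled reads turned Piwil1 to 0.017. With equal library totals Piwil1 was 0.022, Piwil2 0.0024 and the median of the nuclear partners 0.061; with median-of-ratios scaling Piwil1 was 0.0087. Leaving out each library in turn gave log2 fold changes of −0.095 to 0.088 for Piwil1, −0.36 to 0.49 for Spocd1, −0.055 to 0.28 for Tex15, −0.12 to 0.20 for Morc1, −0.010 to 0.23 for Mybl1, −0.052 to 0.38 for Dnmt3l, −0.086 to 0.12 for Spin1, −0.030 to 0.12 for Ddx4, −0.58 to 0.26 for Ago2 and −0.26 to 0.070 for Pld6. It gave medians of −0.033 to 0.14 for the 6 genes, 0.019 to 0.063 for the nuclear partners, −0.032 to 0.079 for piRNA processing, −0.20 to −0.063 for the Argonautes and −0.058 to 0.13 for the other Morc genes. Genes at an unadjusted p under 0.05 numbered 1034 without DMSO library 2 and 1079 with no filter on low values (26138 genes tested), against 546. Where a value turned, the cause was not tested. With the library number as a replicate block 0 genes were called, 797 had an unadjusted p under 0.05, and no call among the 6 changed; deviations of same-numbered libraries correlated at 0.20 across genes, and with 2 pairs this does not settle whether the numbers pair cultures. The number of libraries limits the precision: the median 95% interval of a tested gene reached 0.37 to each side.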
